A study of Drosophila melanogaster with 9 samples.

Results

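Clusters 11, 4 and 97 are 3 of the 140 piRNA clusters measured in ovaries with wild-type (WT) or enok mutant germline clones, and each has a sense and an antisense abundance, which gives 6 of 280 cluster strands. They were chosen by name because their levels had been seen to move together across the same 9 libraries. Their levels, losses and ratios are therefore given as a description, with no test of their own.

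A piRNA cluster is a genomic region whose long transcripts are cut into PIWI-interacting RNAs (piRNAs), the small RNAs that guide PIWI proteins to transposon transcripts and silence them in the germline. In the fly ovary some clusters give rise to piRNAs from both strands and depend on the HP1 protein Rhino for their transcription, as the large source 42AB does. Others are read mainly from 1 strand, such as cluster2 and flam, the flamenco locus of the somatic follicle cells. Many clusters hold copies of the same transposons, so the same small RNA sequence can lie in more than 1 cluster.

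Small RNAs were sequenced from ovaries of females aged 3 to 5 days, with 3 libraries in each of 3 groups. All females carried hs-Flp, a heat-shock driven recombinase, and a FRTG13 chromosome marked with ovo[D1-18], which stops egg chambers early unless recombination has made their germline homozygous for the opposite FRTG13 chromosome. That opposite chromosome carried enok[2] (enok2 group), enok[1] (enok1 group) or no enok mutation (WT group). Enok is a histone acetyltransferase. Per the study, the enok1 allele truncates the protein inside its catalytic domain, and enok2 replaces a conserved cysteine of that domain in a protein of full length. RNA came, per the study, from egg chambers of middle to late stages with their somatic follicle cells, the recombinase is not limited to the germline, and fewer cells of a type cannot be told apart from less small RNA per cell.

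The abundance of a cluster strand is the amount of small RNA mapped to it, which the authors normalized to microRNAs (miRNAs) within each library. The study's methods name uniquely mapping reads, but the deposited abundances of clusters 11, 4 and 97 lie far above those in the study's own table of unique reads, in every library and on both strands. Reads that map to several positions may thus be part of every level and ratio given here. Of the low 3′ untranslated region values of a library, between 42.8% and 50.9% were whole multiples of the value of 1 read, and the rest were not. By chance between 3.1% and 5.5% would be whole multiples. This share was taken from 3′ untranslated regions and not from the clusters. The part of reads shared between clusters in the constant ratios was not tested. All clusters together summed to between 393288 and 438338 in enok2, between 301140 and 418758 in enok1, and between 548223 and 577943 in WT, with enok1 replicate 1 the lowest. Germline and somatic sources were both present in all 9 libraries, as 42AB summed to at least 15212 over both strands, sense flam was at 21159 or more, and the sense 3′ untranslated region of tj, a known somatic piRNA source, at 49.4 or more. The sum of the 3′ untranslated regions of 6 chorion genes, markers of late follicle cells, lay between 3193 and 6027 in enok2, between 1444 and 3242 in enok1 and between 3555 and 6594 in WT. Most of this sum was Cp15, at 2870 to 5594 in enok2, 967 to 3007 in enok1 and 2682 to 5542 in WT. Without Cp15 the other 5 genes summed to 322 to 767 in enok2, 134 to 477 in enok1 and 630 to 1052 in WT. The part of late follicle cells in the differences between groups was not tested.

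Each of the 3 clusters had a strand to which most of its small RNAs were mapped in every library, called its major strand here. It was the antisense strand for clusters 11 and 97 and the sense strand for cluster4. The opposite strand is called the minor strand.

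Cluster11 had most of its mapped small RNAs on the antisense strand. Its antisense abundance was 7041, 5442 and 5042 in the enok2 libraries, 2636, 3686 and 3552 in the enok1 libraries, and 37527, 36275 and 33576 in the WT libraries. The 3 groups did not overlap, with WT highest and enok1 lowest. This was the second most abundant antisense cluster strand in WT after 42AB, and it held the rank of 6 in enok2 and of 12 in enok1. Its level was 16.3% of WT in enok2 and 9.20% of WT in enok1.

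Cluster4 had most of its mapped small RNAs on the sense strand. The sense abundance was 2503, 1940 and 1771 in enok2, 956, 1329 and 1298 in enok1, and 13368, 13145 and 11544 in WT. Again the groups did not overlap and stood in the same order. The level was 16.3% of WT in enok2 and 9.41% of WT in enok1. Sense cluster4 ranked 5 among sense clusters in WT, 26 in enok2 and 42 in enok1.

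Cluster97 was less abundant, and its major strand was again the antisense one. The antisense abundance was 1148, 927 and 848 in enok2, 450, 583 and 613 in enok1, and 4875, 4610 and 4270 in WT. The order of the groups was that of the other major strands, without overlap, while a larger part remained in the mutants. The level was 21.3% of WT in enok2 and 11.97% of WT in enok1, and the rank among antisense clusters was 48 in enok2, 68 in enok1 and 7 in WT.

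**Figure D1:**
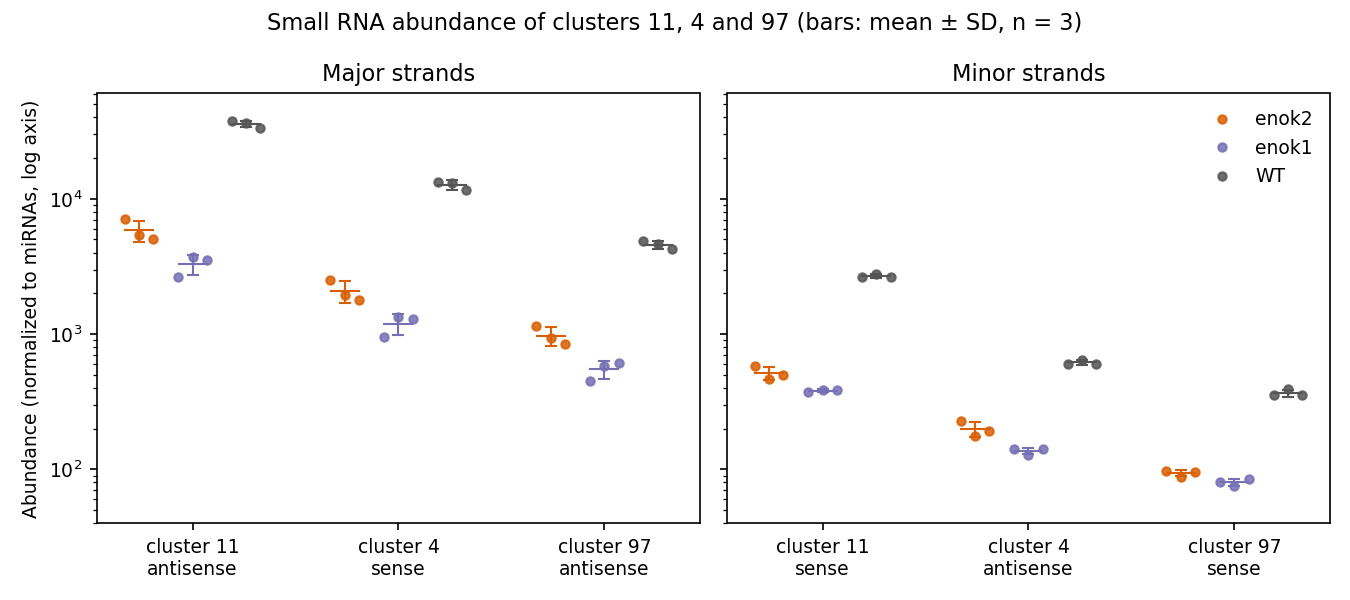
Abundance of the major strands (left) and minor strands (right) of clusters 11, 4 and 97, on a log axis. Points are libraries in replicate order and bars are the mean ± SD of 3 libraries in enok2, enok1 and WT. On each of the 6 strands the enok1 libraries lie lowest and the WT libraries highest, with no overlap between groups.

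The minor strands were lower in both mutants as well, each by less than the major strand of its own cluster. Sense cluster11 was at 514 ± 60.0 in enok2, 382 ± 9.02 in enok1 and 2683 ± 80.3 in WT (mean ± SD, n = 3 libraries each), which is 19.1% of WT in enok2 and 14.2% in enok1. Antisense cluster4 was at 199 ± 25.3 in enok2, 137 ± 7.71 in enok1 and 616 ± 25.1 in WT, or 32.2% and 22.2% of WT in enok2 and enok1. Sense cluster97 was at 93.9 ± 4.81 in enok2, 79.98 ± 4.36 in enok1 and 365 ± 21.8 in WT, or 25.7% and 21.9% of WT. The libraries of the 3 groups did not overlap on any of these strands either, so that on each strand all libraries of either mutant lay below all WT libraries for 3 of 3 members. This held in enok2 for 50% of all sense and 57.9% of all antisense clusters, and in enok1 for 51.4% and 54.3%. Sense cluster97 was the thinnest of the 6 strands, at an estimated 182 reads in its shallowest library, where counting alone gives an error of 7.41%.

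Fold changes were then set beside those of all clusters. They were fitted with limma on log2(abundance + 1) over all 140 clusters of a strand, and a cluster was called at an adjusted p-value under 0.05. On the sense strand 3 of 3 members were called lower in enok2 and 3 of 3 in enok1, where 50.7% and 44.3% of all sense clusters were called lower. On the antisense strand the count was again 3 of 3 in each mutant, with 54.3% of all antisense clusters called lower in enok2 and 47.1% in enok1. Nothing is read from these counts, since the same contrasts were known when the clusters were chosen. The share of clusters called lower depended on the scaling, as with libraries scaled to the sum of all clusters 31 sense and 37 antisense clusters were lower in enok2 and 25 and 34 in enok1, while the members remained called.

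Within each cluster the major strand had the larger loss in both mutants. Antisense cluster11 had a log2 fold change of −2.63 (SE 0.10) in enok2 and −3.46 (SE 0.18) in enok1. Sense cluster4 had −2.63 (SE 0.09) in enok2 and −3.42 (SE 0.18) in enok1. Antisense cluster97 had −2.24 (SE 0.10) in enok2 and −3.07 (SE 0.18) in enok1. For comparison, the median of all sense clusters was −0.20 in enok2 and −0.29 in enok1, and that of all antisense clusters was −0.24 and −0.35. In enok1 only 1 antisense cluster lay lower than cluster11, and cluster97 followed as the third lowest, while sense cluster4 was the third lowest of its strand. The minor strands had log2 fold changes between −2.39 and −1.64 in enok2 and between −2.81 and −2.16 in enok1. Across clusters the ranges overlapped in enok2, where minor sense cluster11 (−2.39) lay below major antisense cluster97 (−2.24).

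**Figure D2:**
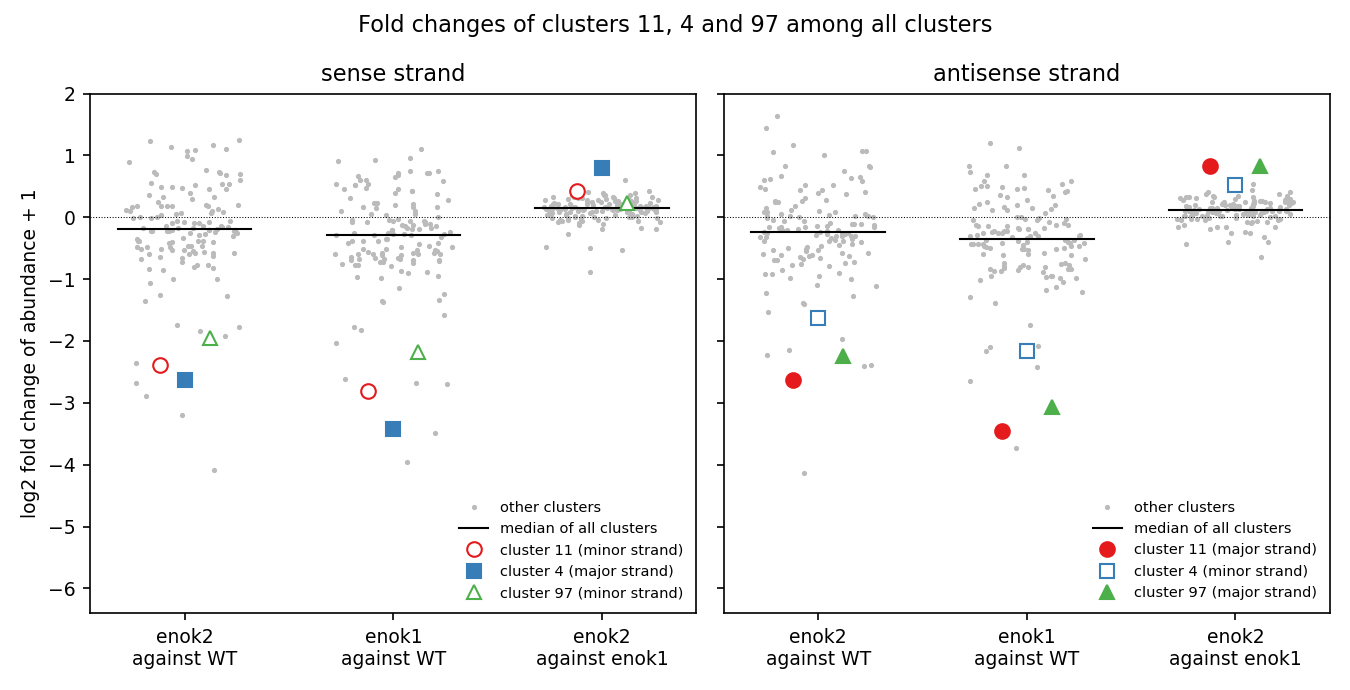
Log2 fold changes of abundance + 1 for all 140 sense clusters (left) and antisense clusters (right), in enok2 against WT, enok1 against WT and enok2 against enok1. Grey points are other clusters, black lines the median of all clusters, filled symbols the major and open symbols the minor strands of clusters 11, 4 and 97. The filled symbols lie near −2.6, −2.6 and −2.2 in enok2, lower still in enok1, and near 0.8 between the mutants.

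The major strands of clusters 11, 4 and 97 were among the few cluster strands called different between the mutants. Antisense cluster11 was 1.77 times, sense cluster4 1.73 times and antisense cluster97 1.78 times as abundant in enok2 as in enok1, with log2 fold changes of 0.83, 0.79 and 0.83. The same ratio was 1.18 for sense 42AB and 1.17 for antisense 42AB, whose libraries overlapped between the mutants. On the sense strand 1 of 3 members (cluster4) was called higher, against 0.714% of all sense clusters, and on the antisense strand 2 of 3 (clusters 11 and 97), against 1.43% of all antisense clusters. These 3 were the whole set of cluster strands called higher in enok2 than in enok1, and the choice of the members rested on the same libraries. All enok2 libraries lay above all enok1 libraries on each of the 6 strands, which held for 15.7% of all sense and 13.6% of all antisense clusters. This rested on the scaling to miRNAs for the minor strands, as the mutants overlapped there in the share of all cluster small RNAs.

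The calls between the mutants rested on single libraries. Without enok2 replicate 1, the highest enok2 library on all 3 major strands, the log2 fold changes were 0.69 for antisense cluster11, 0.65 for sense cluster4 and 0.70 for antisense cluster97, and limma called none of the members, with 1 sense and 2 antisense members at an unadjusted p under 0.05, as were 5 and 3 of all 140 clusters of the strand. Without enok1 replicate 1, the lowest library, they were 0.68, 0.64 and 0.69, and again none was called, with 3 and 3 members and 14 and 17 of all clusters at that unadjusted level. In limma fits with the own variance of each cluster in place of the pooled one, no cluster was called on either strand. At an unadjusted p under 0.05 stood 7 of 140 sense and 4 of 140 antisense clusters, the 3 members included on each strand, which were chosen from the same libraries.

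A share of all cluster small RNAs is free of the scaling to miRNAs, which cancels. Antisense cluster11 made up 1.61%, 1.38% and 1.23% in enok2, 0.875%, 0.880% and 0.896% in enok1, and 6.85%, 6.28% and 5.81% in WT. The groups did not overlap in this share, and the enok1 libraries, whose abundances differed, were nearly level. The mutants did not overlap on the other major strands either, but they did on all 3 minor strands. Sense cluster11 held 0.118% to 0.133% in enok2 and 0.0928% to 0.123% in enok1. Antisense cluster4 held 0.0451% to 0.0517% and 0.0306% to 0.0467%, and sense cluster97 0.0221% to 0.0235% and 0.0180% to 0.0266%. On all 6 strands both mutants lay below WT in this share. The 6 strands together held 2.34% ± 0.29 in enok2, 1.52% ± 0.033 in enok1 and 10.002% ± 0.83 in WT (SD, n = 3 libraries each). Losses, unlike shares, were taken from the abundances and depend on the scaling to miRNAs. The loss of the 6 strands equalled 30.5% of what all clusters lost on balance in enok2 and 26.1% in enok1. Clusters 4 and 97 alone equalled 9.66% in enok2 and 8.32% in enok1.

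How closely the major strands moved together was examined library by library. The ratio of antisense cluster11 to sense cluster4 was 2.81, 2.81 and 2.85 in enok2, 2.76, 2.77 and 2.74 in enok1, and 2.81, 2.76 and 2.91 in WT. Over the 9 libraries the level of antisense cluster11 spanned 14.2-fold and that of sense cluster4 spanned 13.99-fold, whereas their ratio spanned 1.06-fold. The mean log2 ratio differed from WT by −0.0015 (SE 0.023) in enok2 and by −0.035 (SE 0.023) in enok1, and the mutant libraries overlapped those of WT. Between the mutants the ratio was higher in every enok2 library than in any enok1 library, by 0.034 (SE 0.0086) on the log2 scale.

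The same proportion held for what was lost, which follows by arithmetic from the near-constant ratio of the levels. For each unit of abundance lost by antisense cluster11, sense cluster4 lost 0.354 units in both enok2 and enok1. In the libraries themselves sense cluster4 stood at 0.354 ± 0.0028 of antisense cluster11 in enok2, 0.363 ± 0.0024 in enok1 and 0.354 ± 0.0095 in WT (SD, n = 3 libraries each).

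Antisense cluster97 kept a constant ratio to the other major strands within the mutants but not between mutants and WT. The ratio of antisense cluster11 to antisense cluster97 was 6.13, 5.87 and 5.95 in enok2, 5.86, 6.32 and 5.79 in enok1, and 7.70, 7.87 and 7.86 in WT. The mutant groups overlapped each other, and both lay below all WT libraries, by a mean log2 difference of −0.38 (SE 0.022) in enok2 and −0.38 (SE 0.041) in enok1. The ratio of sense cluster4 to antisense cluster97 behaved alike, at 2.12 ± 0.052 in enok2, 2.17 ± 0.092 in enok1 and 2.77 ± 0.077 in WT. Per unit lost by antisense cluster11, antisense cluster97 lost 0.121 units in enok2 and 0.124 units in enok1. Its level per unit of antisense cluster11 was 0.167 ± 0.0038 in enok2, 0.167 ± 0.0078 in enok1 and 0.128 ± 0.0016 in WT, and the excess of enok2 over enok1 stood in a ratio of 0.167 as well. The ratios of the losses and of the excess follow by arithmetic from the levels.

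**Figure D3:**
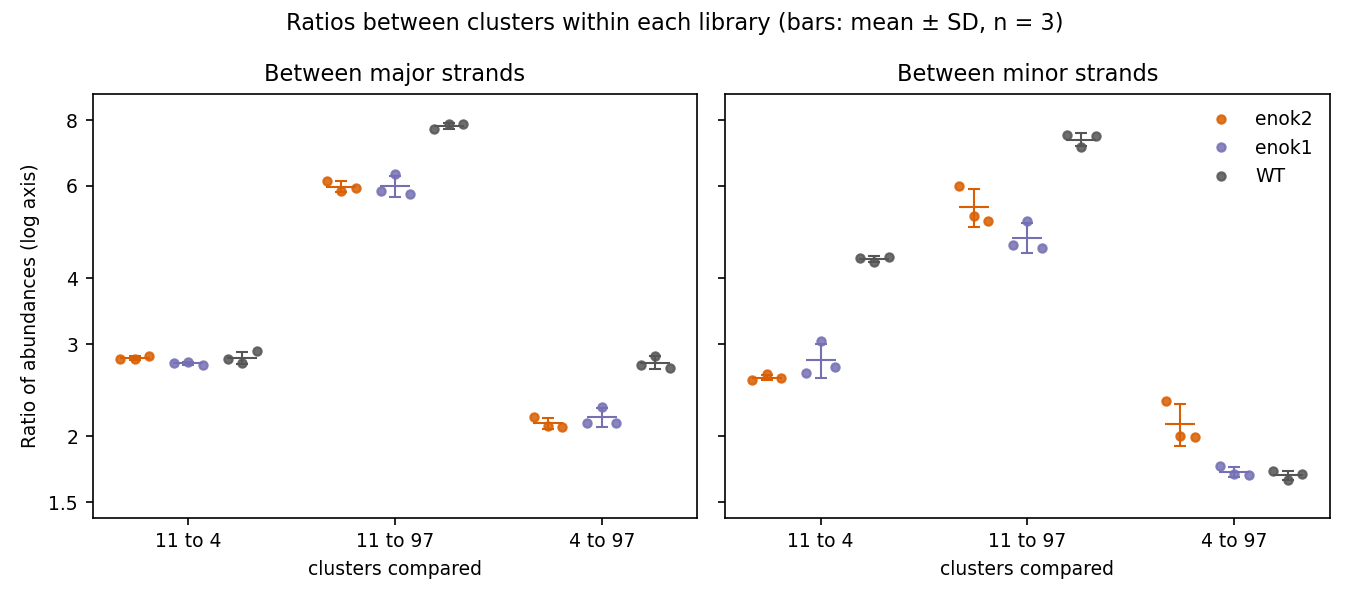
Ratio of abundances between clusters within each library, on a log axis, for the major strands (left: antisense 11 to sense 4, antisense 11 to antisense 97, sense 4 to antisense 97) and the minor strands (right: the opposite strands). Points are libraries and bars are the mean ± SD of 3 libraries. The ratio of 11 to 4 between major strands lies between 2.74 and 2.91 in all 9 libraries, while the ratios to cluster97 lie lower in both mutants than in WT.

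Deviations of single libraries from their own group mean restate the near-constant ratios of the major strands within groups. The clusters were chosen for moving together in these same libraries. In enok2 replicate 1 antisense cluster11, sense cluster4 and antisense cluster97 lay 0.28, 0.29 and 0.25 above the enok2 mean on the log2 scale, and in enok1 replicate 1 they lay at −0.30, −0.31 and −0.27 relative to the enok1 mean. In 9 of 9 libraries the 3 deviations had the same sign, and within a library they differed by at most 0.078. The total of all clusters stood on the same side as the major strands in all enok1 libraries, where replicate 1 was at −0.29, and in all enok2 libraries, where it spanned less, between −0.071 and 0.085. In WT it departed from them, at −0.051 in replicate 1 and 0.026 in replicate 3, where antisense cluster11 stood at 0.070 and −0.091.

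For the minor strands the 3 deviations had the same sign in 6 of 9 libraries, and in only 5 of 9 did all 6 strands share it. In enok1 replicate 1, where the major strands were lowest, sense cluster11 stood at −0.039, antisense cluster4 at 0.040 and sense cluster97 at 0.0041. Over the 6 mutant libraries the minor strands spanned 1.56-fold for sense cluster11, 1.77-fold for antisense cluster4 and 1.28-fold for sense cluster97, against 2.67-fold, 2.62-fold and 2.55-fold for the major strands of clusters 11, 4 and 97.

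**Figure D4:**
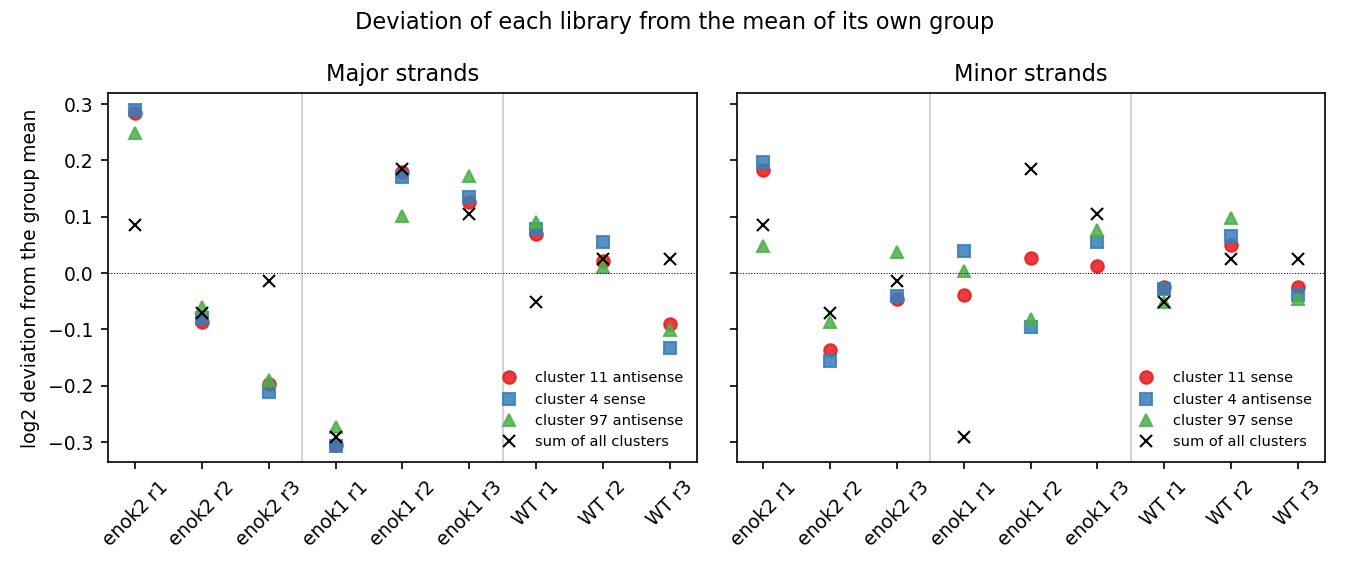
Log2 deviation of each library from the mean of its own group, for the major strands (left) and the minor strands (right), with the sum of all clusters as crosses and r for replicate. The 3 major strands coincide within 0.078 in each of the 9 libraries, whereas in enok1 replicate 1 the minor strands lie between −0.039 and 0.040.

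Ratios between the minor strands differed between groups. The ratio of sense cluster11 to antisense cluster4 was 2.56, 2.63 and 2.58 in enok2, 2.64, 3.04 and 2.71 in enok1, and 4.37, 4.30 and 4.40 in WT, so that both mutants lay far below WT. That of sense cluster11 to sense cluster97 was 5.47 ± 0.46 in enok2, 4.78 ± 0.31 in enok1 and 7.35 ± 0.21 in WT. The ratio of antisense cluster4 to sense cluster97 separated the alleles, at 2.34, 2.01 and 1.99 in enok2, 1.76, 1.70 and 1.69 in enok1, and 1.72, 1.65 and 1.70 in WT. Here enok1 overlapped WT and enok2 lay above both.

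The mean strand bias of all 3 clusters was smaller in both mutants than in WT. In cluster4 sense exceeded antisense 10.4 ± 1.0 times in enok2, 8.77 ± 1.8 times in enok1 and 20.6 ± 1.4 times in WT (SD, n = 3 libraries each). In cluster11 antisense exceeded sense 11.3 ± 1.0 times in enok2, 8.60 ± 1.3 times in enok1 and 13.3 ± 0.78 times in WT. In cluster97 the factor was 10.4 ± 1.5 in enok2, 6.87 ± 1.1 in enok1 and 12.6 ± 1.1 in WT. Neither mutant overlapped WT in clusters 4 and 11, while in cluster97 the enok2 libraries overlapped those of WT and the enok1 libraries did not.

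The narrowing was set beside that of all clusters. Ranked by the fall of the absolute log2 ratio of the strands among the 140 clusters, cluster4 had the largest narrowing in enok1 (1.25) and the second largest in enok2 (0.99), with a median over all clusters of a change by −0.087 in enok1 and 0.0054 in enok2. Cluster97 was the second in enok1 and held rank 31 in enok2, and cluster11 held ranks 10 and 34 in enok1 and enok2. In WT cluster4 ranked 4, cluster11 ranked 5 and cluster97 ranked 6 by strand bias. The strand ratios of cluster2, flam and 42AB overlapped between each mutant and WT, although 42AB itself was at 19.5% (sense) and 18.8% (antisense) of WT in enok2 and at 16.5% and 16.1% in enok1.

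**Figure D5:**
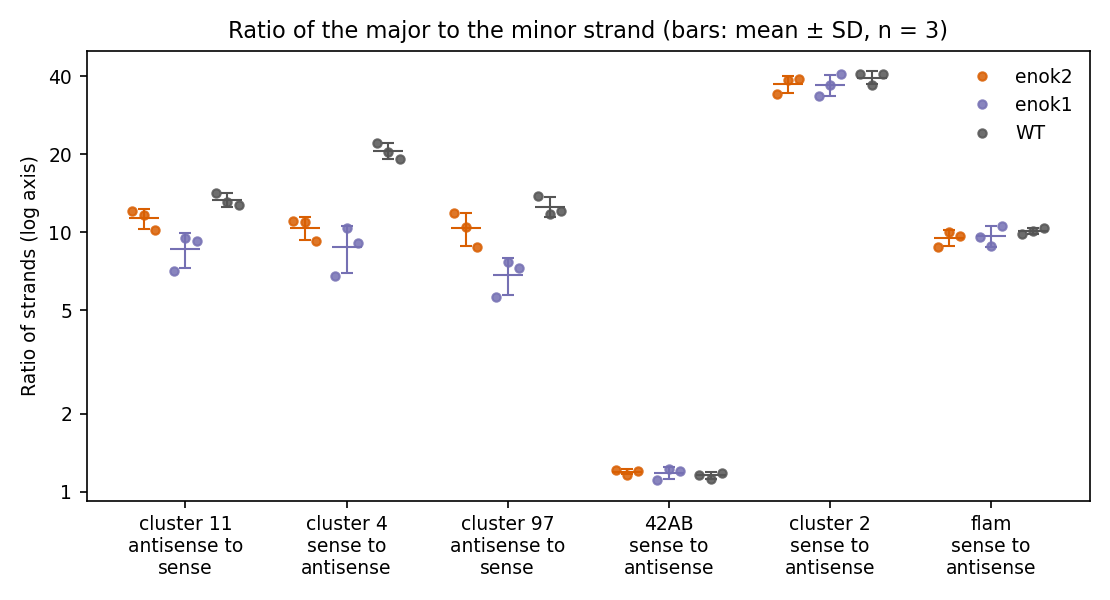
Ratio of the major to the minor strand within each library, on a log axis, for clusters 11, 4 and 97 and, as comparison, the ratio of sense to antisense for 42AB, cluster2 and flam. Points are libraries and bars are the mean ± SD of 3 libraries in enok2, enok1 and WT. The ratios of clusters 11, 4 and 97 are lower in enok1 than in WT, with cluster4 at 8.77 against 20.6, while those of 42AB, cluster2 and flam overlap.

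The cluster strands most like each member were found by the SD of the log2 ratio over the 9 libraries, among 277 others with a mean abundance of at least 10. For antisense cluster11 these were sense cluster4 (SD 0.027), sense cluster33 (0.18) and antisense cluster97 (0.20), against a median SD of 1.43 over all others. For sense cluster4 they were antisense cluster11 (0.027), antisense cluster97 (0.19) and sense cluster33 (0.19). For antisense cluster97 they were sense cluster4 (0.19), antisense cluster11 (0.20) and sense cluster11 (0.22). Over all 38503 pairs of these strands the median SD was 0.37. Of these pairs 21.0% were as tight as antisense cluster11 with antisense cluster97, and 19.3% as sense cluster4 with antisense cluster97. For antisense cluster11 with sense cluster4 the share was 0.013%. Among the 21 pairs of the 7 strands at least as variable as antisense cluster97, the same pairs ranked 5, 3 and 1. As the clusters were chosen for moving together in these 9 libraries, these shares and ranks restate that choice and test nothing. Sense cluster33, a neighbour of antisense cluster11 and sense cluster4, had a log2 fold change of −2.88 in enok2 and −3.48 in enok1. For antisense cluster97 it held only rank 6 (SD 0.31).

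The neighbours of the minor strands were less stable. Sense cluster11 was closest to antisense 42AB (SD 0.13), sense 42AB (0.17) and antisense cluster97 (0.22). Over the 6 mutant libraries alone none of these remained among the closest 3, and antisense cluster4 was the closest (SD 0.089). The ratio of sense cluster11 to antisense 42AB was 0.0505 ± 0.0012 in enok2, 0.0448 ± 0.0062 in enok1 and 0.0498 ± 0.00093 in WT, with overlap between all groups. Antisense cluster11, by contrast, stood at 0.573 ± 0.059 of antisense 42AB in enok2, 0.380 ± 0.019 in enok1 and 0.664 ± 0.040 in WT. Antisense cluster4 was closest to sense cluster97 (0.17), sense cluster85 (0.23) and antisense cluster33 (0.25), and sense cluster97 to sense cluster85 (0.12), antisense cluster4 (0.17) and antisense cluster33 (0.17). Antisense cluster97 was among the neighbours of both strands of cluster11.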

How the data were processed

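The authors made the small RNA libraries from total RNA, blocked 2S rRNA with a DNA oligo, selected small RNAs by size and, per the study's methods, ran the default small RNA pipeline of piPipes against dm3 with no mismatch allowed and unique mappers only, which the deposited cluster values do not match. The submitters' notes also name Trimmomatic. The deposited values are a signal per cluster and strand, normalized by the authors to the miRNAs of the library, with replicates kept apart. They are not counts, and whole reads could not be recovered. The value of 1 read, the step at which low 3′ untranslated region values gather (tolerance 0.0075), lay between 0.272 and 0.486, and dividing by it gave the estimated reads of a cluster. Errors from these estimates cover counting only.

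Groups and replicate numbers came from the sample titles. The labels name no batch and do not say whether replicates came from separate animals, so errors measure the spread between these libraries. limma 3.58.1 (R 4.3.3, eBayes without trend) was fitted to log2(abundance + 1), in each fit with only the groups compared and all 140 clusters of a strand, with Benjamini-Hochberg adjustment of p-values. This scale understates changes of low values. limma shared 1 variance over all clusters in most fits, hence the equal SEs. Ratios were taken without a pseudocount, and the SE of a difference in mean log2 ratio comes from the variances of the groups. Simulated data with known changes were used to test the fit. Alternatives were other scalings (median of ratios, cluster sum, sense flam), a pseudocount of 10, a minimum mean abundance of 10, all groups in 1 fit, own variances, a replicate block and leaving out each library.

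The clusters and all lists were chosen with earlier results of these data known. Named are the 6 strands of clusters 11, 4 and 97, the comparison clusters 42AB, 2 and flam, and for each of the 6 strands the 3 others with the smallest SD of the log2 ratio. Markers were flam, tj, 42AB and 6 chorion genes, matched by RefSeq transcript of Release 6 for names only. The positions and sequences of the clusters were not used here.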

Additional observations from a re-analysis of the deposited data

How the results depend on the processing

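Every log2 fold change of the 6 strands against WT kept its sign and its call in both mutants, in all 84 values recomputed for each mutant over the 3 scalings, the pseudocount of 10, the minimum abundance, the joint fit, own variances, the replicate block and each library left out. The values moved most under scaling to the cluster sum, which shifts the median of all sense clusters to 0.26 in enok2 and 0.34 in enok1 and that of antisense clusters to 0.22 and 0.27. Antisense cluster11 then had −2.17 in enok2 and −2.83 in enok1. The counts of all clusters called lower and higher changed with the scaling. They were 71 and 38 for sense enok2, 62 and 25 for sense enok1, 76 and 33 for antisense enok2 and 66 and 19 for antisense enok1. Scaling by the median of ratios gave 55 and 59, 53 and 54, 59 and 52, and 47 and 45 in the same order. Scaling to the cluster sum gave 31 and 86, 25 and 83, 37 and 82, and 34 and 84. With own variances 35 sense and 45 antisense clusters were lower in enok1, and 9 and 4 were higher.

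Between enok2 and enok1, 73 of 84 values kept their side of the threshold and all kept their sign. With sense flam scaling 0 sense members were called by limma, with 2, and 24 of all 140 sense clusters, at an unadjusted p under 0.05. With own variances 0 sense and 0 antisense members were called, with 3 and 3 at an unadjusted p under 0.05, as were 7 and 4 of all 140 clusters. With 1 library left out, between 0 and 1 sense members and between 0 and 2 antisense members were called, the 0 arising without enok2 replicate 1 or enok1 replicate 1. In the joint fit of 3 groups antisense cluster4 was called as well (0.53). None of the 126 recomputed ratios moved by more than the SD between replicates. Of the 3 neighbours named for each strand, those of the major strands stayed in at least 2 of 3 places, while over the 6 mutant libraries alone 0 of 3 remained for sense cluster11, 1 of 3 for antisense cluster4 and 0 of 3 for sense cluster97. With the replicate number as a block, 3 of 3 members were called against WT on each strand in each mutant, and 1 sense and 2 antisense members between the mutants. The correlation of deviations between same-numbered libraries was mixed, as it lay between −0.28 and 0.24 and exceeded 0.1 in 4 of 9 pairs. For replicate 3 it was 0.16 between enok2 and WT, 0.16 between enok1 and WT and 0.17 between the mutants. The numbers were not taken to pair the libraries in the main fits. Depth limits the minor strands, above all sense cluster97.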
